A study of Mus musculus with 8 samples.

Results

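The genes described here encode the NF-kB signalling system: the 5 transcription factor subunits, their inhibitors, the kinases and adaptors that release them, and genes that feed back on them or respond to them. They were chosen by name, as a list of 38 genes with known roles in the pathway, and all 38 were found by symbol among the 27179 genes of the count table. Their transcripts were measured by RNA sequencing in CCR6+ group 3 innate lymphoid cells (ILC3s), gut-resident lymphocytes that secrete interleukin 22 and do not carry rearranged antigen receptors. At steady state, C57BL/6 large intestines were the source, and the cells were gated as CD127+ CD90-high CD45-dim cells that lacked T cell, B cell, NK cell and myeloid surface proteins. In 4 libraries (Zbtb46-sufficient, replicates 1 to 4, titled wild type) both Zbtb46 alleles were floxed and no Cre is named in the genotype (Zbtb46f/f). In the other 4 (Zbtb46-deficient, replicates 5 to 8) the same floxed alleles were combined with a Cre recombinase transgene. All 8 mice therefore carried floxed Zbtb46, and an effect of Cre itself cannot be told apart from one of the deletion. Each library came from 1 mouse. Their ages are not stated.

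NF-kB proteins are dimers held in the cytoplasm by inhibitor proteins of the IkB family. In the canonical arm, receptors for tumour necrosis factor, interleukin 1 and microbial products act through adaptor proteins and the kinase TAK1 on the IKK complex, which marks the inhibitors for degradation and frees dimers of RelA, c-Rel and p50. In the non-canonical arm, receptors such as the lymphotoxin beta receptor and RANK stabilise the kinase NIK, which acts through IKK alpha to turn the p100 precursor into p52, the partner of RelB. Many genes of the system are themselves NF-kB targets, so that inhibitors such as IkB alpha and A20 are made in response to the signal they end. Lymphotoxin signalling through both arms is known for its part in the formation of lymphoid tissue, to which CCR6+ ILC3s contribute.

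The libraries held 25328231 to 33760743 counts each, and values are CPM (counts scaled to a common library total, with TMM factors), given as mean ± SD over n = 4 libraries per group. Zbtb46 itself had 8.02, 48.8, 88.9 and 26.6 CPM in sufficient replicates 1 to 4 and 4.82, 0.532, 3.19 and 0.125 CPM in deficient replicates 5 to 8, with no overlap between groups (exact two-sided permutation p = 0.0286, the smallest that 4 against 4 can give; edgeR adjusted p = 0.885). DESeq2 called Zbtb46, at a log2 fold of -4.30 and an adjusted p = 0.0116, against -4.31 in edgeR and -7.02 in edgeR without replicates 5 and 7. All 12 ILC3 marker genes passed the expression filter, and they summed to 25862 to 38644 CPM in sufficient and 24211 to 30628 CPM in deficient libraries. Markers of other cells stood out in single libraries. The epithelial list came to 1353 CPM in sufficient replicate 2, against 28.6 CPM or less in the rest. The stromal and endothelial list came to 1174 CPM in sufficient replicate 1 and 481 CPM in deficient replicate 7, and macrophage and neutrophil markers to 422 and 753 CPM in deficient replicates 5 and 7 against 5.05 to 148 CPM elsewhere. Most of these latter sums in replicates 5 and 7 came from S100a8 (238 and 316 CPM) and S100a9 (94.1 and 359 CPM). In replicate 5 Fcgr3 was at 86.9 and Adgre1 at 2.65 CPM, while Csf1r, Cd68, C1qa, C1qb and Itgam were at 0. In replicate 7 Csf1r, Cd68, C1qa, C1qb and Itgam ran from 0.125 to 8.17 CPM. The T cell marker list summed to 84.1 to 204 CPM in sufficient and 81.9 to 163 CPM in deficient libraries. Of its genes, Trbc1 was at 11.5 to 62.7 CPM in sufficient and 30.8 to 53.1 CPM in deficient libraries. Cd4 was at 35.6 to 105.5 and 6.73 to 45.6 CPM. Cd3g was at 60.9 CPM in sufficient replicate 3 and 54.4 CPM in deficient replicate 5, where Trac was at 54.8 CPM. Cd3d reached 15.8 CPM in deficient replicate 5, while Cd3e and Cd5 had at most 0.165 and 0.501 CPM in any library. Cd8a was at 0 counts in all 8. Markers of NK cells and ILC1s summed to 49.8 to 248 CPM in sufficient and 189 to 634 CPM in deficient libraries. Of these, Ncr1 was at 0.0391, 41.1, 67.4 and 198 CPM in sufficient and 447, 148, 151 and 270.1 CPM in deficient libraries, and Prf1 was at 0 counts in all 8. Eomes had at most 0.0571 CPM in any library, and Tbx21 had 11.3 CPM in deficient replicate 5 and at most 3.64 CPM elsewhere. Klrb1c was at 24.4 to 48.2 CPM in sufficient and 13.7 to 46.2 CPM in deficient libraries. The part of these cells in the values below was not tested. In such bulk samples fewer cells of a type and less RNA per cell cannot be told apart.

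Because several genes of the family are known NF-kB targets, their promoters were searched for the kB consensus, and 5 that hold a match are printed here for subunits, an inhibitor and feedback genes described below. RefSeq promoter windows of 300 bases (250 before to 50 after an annotated start, build GRCm38.p6) were matched for 29 of the 38 genes by symbol. Entries were missing for Nfkb1, Relb, Nfkbiz, Ikbkb, Map3k8, Tab1, Ripk2, Malt1 and Cd83. Capitals mark matches to the 10-base kB consensus, searched on both strands, and adjoining matches run together. The pattern was GGGRNNYYCC, with R for A or G, Y for C or T and N for any base.
Nfkb2, chr19:46304487-46304786, plus strand: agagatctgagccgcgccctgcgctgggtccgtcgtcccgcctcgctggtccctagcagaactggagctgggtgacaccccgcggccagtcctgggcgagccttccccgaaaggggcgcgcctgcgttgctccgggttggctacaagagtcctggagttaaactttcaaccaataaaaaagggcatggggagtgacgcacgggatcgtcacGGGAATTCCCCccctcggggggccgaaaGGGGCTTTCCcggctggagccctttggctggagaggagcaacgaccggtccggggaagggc
Rel, chr11:23770920-23771219, minus strand: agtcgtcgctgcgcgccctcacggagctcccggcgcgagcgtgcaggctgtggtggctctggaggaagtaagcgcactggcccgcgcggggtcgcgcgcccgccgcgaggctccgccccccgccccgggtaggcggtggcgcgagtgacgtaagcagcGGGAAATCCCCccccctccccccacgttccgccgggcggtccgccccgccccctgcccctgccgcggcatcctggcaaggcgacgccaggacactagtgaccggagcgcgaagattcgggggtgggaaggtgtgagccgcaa
Nfkbia, chr12:55492598-55492897, minus strand: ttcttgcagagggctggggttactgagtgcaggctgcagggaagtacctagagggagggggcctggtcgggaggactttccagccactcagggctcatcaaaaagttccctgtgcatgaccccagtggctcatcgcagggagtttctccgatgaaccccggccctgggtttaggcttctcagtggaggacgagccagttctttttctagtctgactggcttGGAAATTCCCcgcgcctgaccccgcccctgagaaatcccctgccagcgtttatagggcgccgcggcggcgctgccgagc
Tnfaip3, chr10:19015361-19015660, minus strand: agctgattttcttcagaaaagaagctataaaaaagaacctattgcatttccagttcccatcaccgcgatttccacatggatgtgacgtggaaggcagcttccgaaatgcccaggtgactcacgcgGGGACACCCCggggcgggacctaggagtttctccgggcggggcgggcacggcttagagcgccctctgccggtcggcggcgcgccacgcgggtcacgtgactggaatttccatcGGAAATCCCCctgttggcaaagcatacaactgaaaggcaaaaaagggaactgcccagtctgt
Cyld, chr8:88696778-88697077, plus strand: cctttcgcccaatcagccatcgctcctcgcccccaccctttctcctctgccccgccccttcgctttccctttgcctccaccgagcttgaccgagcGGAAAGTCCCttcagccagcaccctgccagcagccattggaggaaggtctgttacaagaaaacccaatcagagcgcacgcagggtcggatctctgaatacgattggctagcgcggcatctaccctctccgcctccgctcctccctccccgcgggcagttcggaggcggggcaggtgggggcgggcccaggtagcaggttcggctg
A match was present in at least 1 window of 12 of the 29 genes (41.4%), against 9.55% of the 27025 genes in the promoter table. The 12 were Nfkb2, Rel, Nfkbia, Nfkbie, Nfkbid, Bcl3, Tnfaip3, Tnip1, Cyld, Bcl10, Map3k7 and Traf3. Matches were thus found for subunits, IkB proteins, feedback inhibitors, a kinase and adaptors. Genes with a window and no match included Rela, Nfkbib, Tnip2 and Icam1, and the IKK group genes Chuk, Ikbkg, Ikbke and Tbk1. In the printed windows the matches began 39, 38 and 11 bases before the start in Nfkb2, 92 and 91 before it in Rel, 29 in Nfkbia, 125 and 12 in Tnfaip3 and 155 in Cyld. A match is a stretch of letters and was not tested for binding. Sites that depart from this pattern would not be found, so a window without a match may still hold a kB site. Of the 12 genes with a match 7 had a lower fitted value in deficient ILC3s, and of the 15 tested genes whose windows held none 10 did.

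Levels within CCR6+ ILC3s were compared per kb of the principal transcript, since longer transcripts give more reads. The list spanned a wide range, and its most abundant transcripts were those of feedback genes and of the p50 precursor. Tnfaip3, which encodes the ubiquitin-editing inhibitor A20, was highest in both groups, with 617 ± 85.1 and 551 ± 184 CPM per kb in sufficient and deficient libraries. Nfkbia (IkB alpha, the inhibitor that retains RelA dimers) followed with 273 ± 60.2 and 199.6 ± 51.7, and Nfkb1 (the p105 precursor of p50) with 224 ± 78.3 and 174 ± 67.8 CPM per kb. Nfkbia and Nfkb1 overlapped in their spread, so their order is not resolved. With the length of all annotated exons in place of the principal transcript, Tnfaip3 and Nfkbia stayed at the top, while Nfkbiz came next and Nfkb1 at rank 8. The next genes, Birc2, Nfkbiz, Map3k8, Cd83 and Nfkbie, averaged 148, 145, 139, 122 and 109 CPM per kb over all 8 libraries, and their ranges also overlapped. Nfkb1 stood above the other subunits, with Relb, Rel, Rela and Nfkb2 close together at 34.8, 30.7, 28.4 and 27.7 CPM per kb. Both catalytic IKK genes were detected in every library, and Chuk averaged 47.0 and Ikbkb 21.1 CPM per kb. The regulatory subunit gene Ikbkg, at 4.06 CPM per kb, varied from 0 to 82.9 CPM between libraries.

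**Figure D1:**
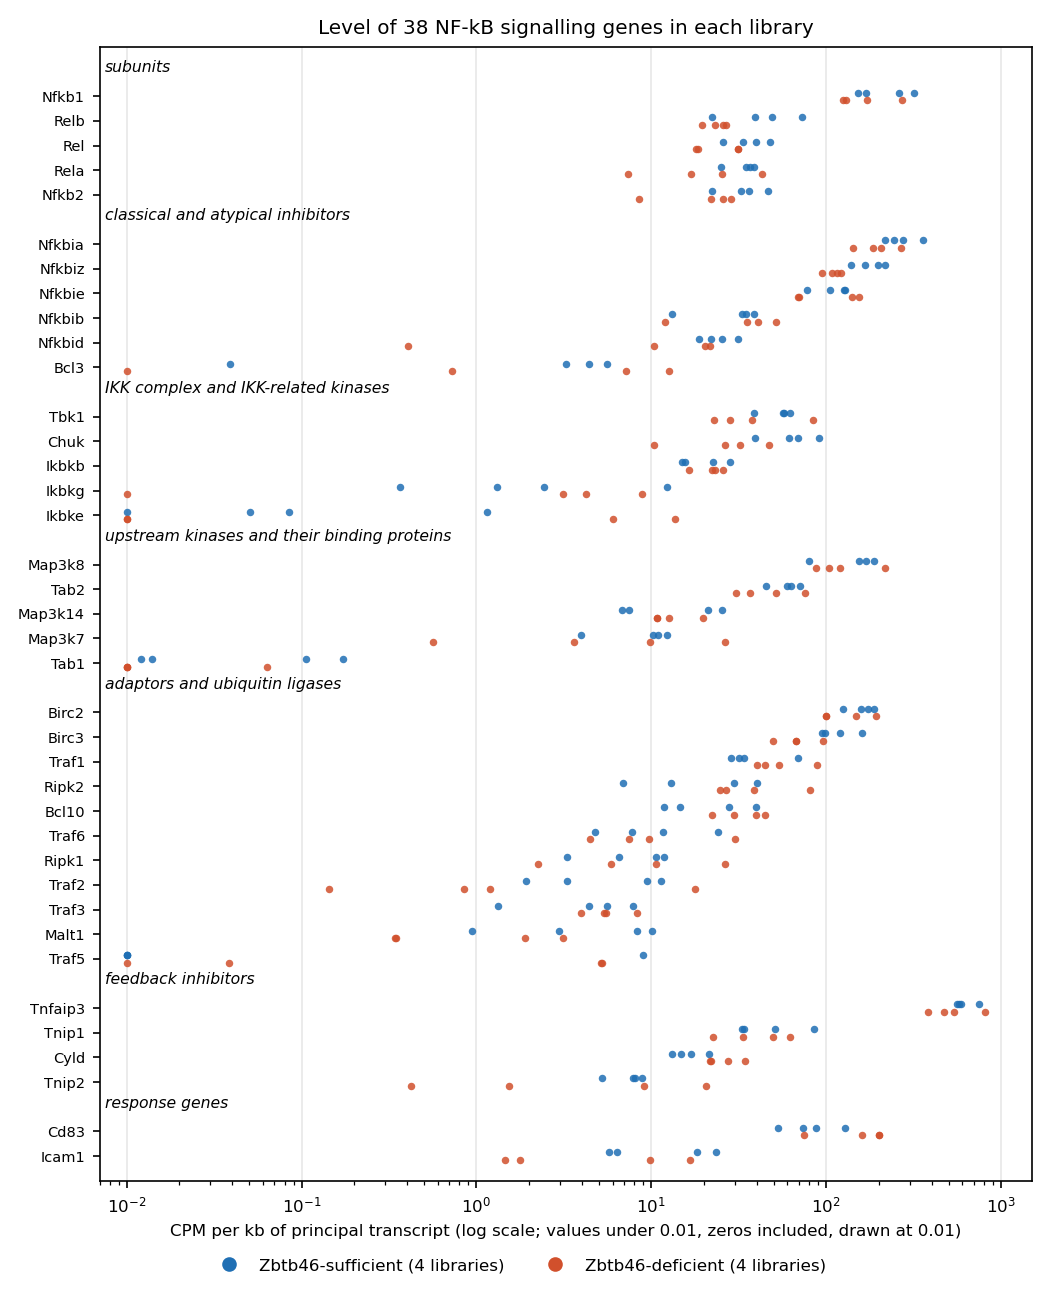
Level of each of the 38 genes in each library, as CPM per kb of the principal transcript on a log axis, grouped by role. Blue points are the 4 Zbtb46-sufficient and red points the 4 Zbtb46-deficient libraries, and values under 0.01, zeros included, are drawn at 0.01. Tnfaip3, Nfkbia and Nfkb1 are at the top of the range, while Ikbke, Traf5 and Tab1 have libraries near 0 in both groups.

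Genes of low level were detected in some libraries of a group and not in others. The genes Ikbke, Traf5 and Tab1 did not pass the expression filter, and 35 of the 38 were tested. Ikbke, which encodes an IKK-related kinase, had 7, 4, 103 and 0 counts in the sufficient libraries, in order of replicate, and 0, 1168, 626 and 1 in the deficient ones. Its reads were thus almost confined to deficient replicates 6 and 7, with a small number in sufficient replicate 3. Traf5, an adaptor of tumour necrosis factor receptors, had 0, 0, 0 and 450 counts in the sufficient libraries, in order of replicate, and 0, 2, 325 and 328 in the deficient ones. Tab1, a partner of TAK1, had no more than 13 counts in any library. A library at 0 could hold a true level of 0.0856 to 0.124 CPM, which is 3 counts of its scaled total, and this limit covers counting error only because amplified cDNA reads are not independent molecules. Among tested genes of the list the median coefficient of variation within a group was 32.4% for the 16 that averaged 100 CPM or more and 61.9% for the 19 below that. Over all tested genes the same medians were 31.4% and 81.9%.

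The design has a single comparison, which asks whether transcript levels in CCR6+ ILC3s differ when Zbtb46 is deleted. No NF-kB gene differed past the threshold. With edgeR's quasi-likelihood test and Benjamini-Hochberg adjustment over all 8878 tested genes, 0 of the 35 had an adjusted p under 0.05, where 0% of all tested genes did, and the smallest adjusted p among them was 0.664. DESeq2 likewise called 0 of them, against 3.22% of the genes for which it gave an adjusted p. Before adjustment 5 of the 35 had an edgeR p under 0.05 (14.3%), where 4.10% of all tested genes did, and among genes averaging 100 CPM or more the counts were 5 of 16 members and 9.14% of all. These 5 were Nfkbiz, Chuk and Birc3 with lower and Cyld and Cd83 with higher fitted values in deficient ILC3s, where all tested genes gave 2.00% lower and 2.10% higher. The 4 deficient libraries lay wholly on one side of the 4 sufficient ones in 2 of the 35 (5.71%), Nfkbiz below and Cyld above, against 4.36% of all tested genes, of which 2.10% were lower and 2.26% higher. At 100 CPM and above they did so in 2 of 16, against 6.29% of all genes of that level.

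Across the list 22 of the 35 had a lower and 13 a higher fitted value in deficient ILC3s, where 49.1% of all tested genes were lower. The median log2 fold (deficient over sufficient) of the 35 was -0.16, beside 0.02 over all tested genes. At 100 CPM and above 13 of 16 were lower, against 55.7% of all genes of that level, with medians of -0.28 and -0.06. The median moved when single libraries were left out. It was -0.51 without deficient replicate 6, -0.25 without sufficient replicate 3 and -0.06 without deficient replicate 8, and 25, 24 and 21 of the 35 were then lower. Without deficient replicates 5 and 7, which had the highest sums of the macrophage and neutrophil list, the median was -0.05 with 20 of 35 lower. With limma-voom and sample quality weights it was -0.48, and without scaling factors -0.09. Over all genes of each fit the median was -0.06 without replicates 5 and 7. It was -0.02 to 0.11 in the other fits named here.

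**Figure D2:**
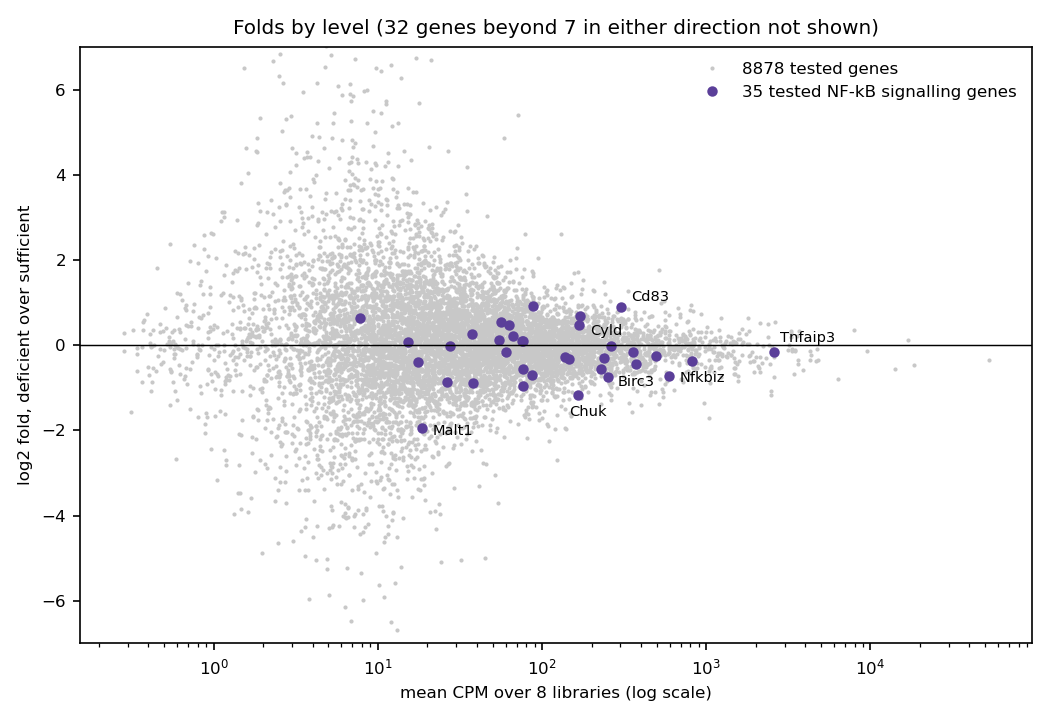
Log2 fold (deficient over sufficient) against mean CPM over all 8 libraries, on a log axis, for the 8878 tested genes in grey and the 35 tested NF-kB signalling genes in purple. The purple points lie within the cloud of all genes at their level, with Chuk and Nfkbiz below 0 and Cd83 and Cyld above it.

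**Figure D3:**
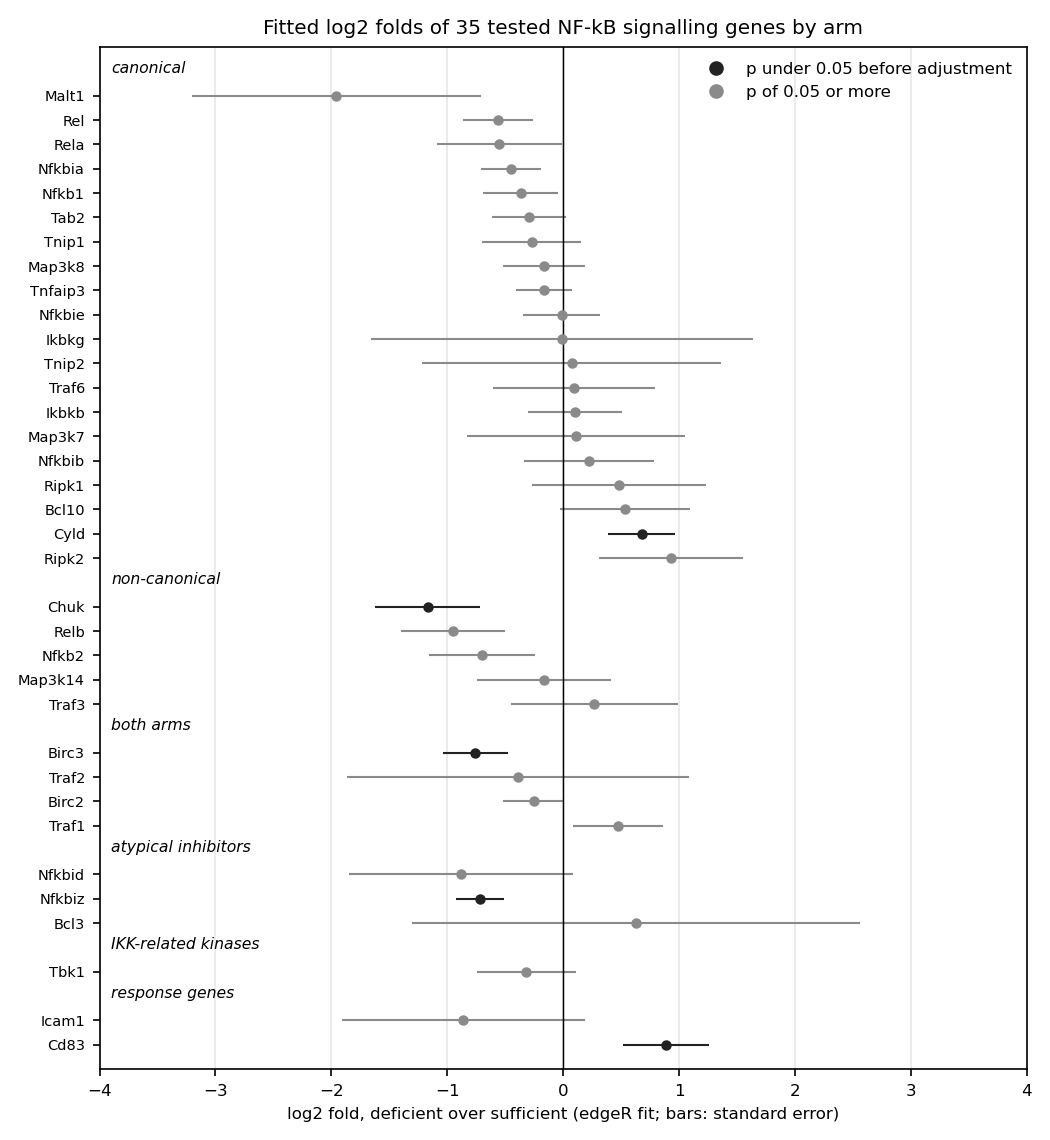
Fitted log2 fold (deficient over sufficient) with its standard error for the 35 tested genes, by arm of the pathway. The 5 genes with p under 0.05 before adjustment are black, and none of the 35 passed after adjustment over all genes.

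The 5 subunit genes all had lower fitted values in deficient ILC3s, and none of them passed the test or had groups that did not overlap. Relb, the non-canonical subunit (Entrez ID 19698, chromosome 7, 19606217 to 19629438 in RefSeq's GRCm38.p6 annotation, as for the other spans given here), had 86.4, 161, 48.97 and 109 CPM in sufficient replicates 1 to 4 and 58.96, 50.8, 56.8 and 43.2 CPM in deficient replicates 5 to 8. The deficient libraries were tightly grouped, at the level of the lowest sufficient library, replicate 3, while sufficient replicate 2 was highest. The fitted log2 fold was -0.95 ± 0.45 (SE; edgeR adjusted p = 1.000). It was -0.64 without sufficient replicate 2 and -1.16 without sufficient replicate 3. The p of Relb before adjustment was under 0.05 in the latter fit and with DESeq2, and over it in the other alternatives. Its partner gene Nfkb2, encoding p100, had 103, 145, 114 and 69.9 CPM against 68.9, 26.8, 80.2 and 89.7 CPM. Deficient replicate 6 was lowest, and sufficient replicate 4 fell among the other deficient libraries. The log2 fold was -0.70 ± 0.46 (SE; edgeR adjusted p = 1.000), -0.44 without deficient replicate 6 and -0.88 without deficient replicate 8.

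Of the canonical subunits, Rel, encoding c-Rel, had 249, 191, 355 and 297 CPM in sufficient and 134, 234, 138 and 234 CPM in deficient libraries. Deficient replicates 5 and 7 were below every sufficient library, and replicates 6 and 8 were within their range, above sufficient replicate 2. The log2 fold was -0.56 ± 0.31 (SE; edgeR adjusted p = 1.000). It was -0.22 without deficient replicates 5 and 7 and -0.73 without replicates 1 and 6. Rela, encoding the main activating subunit, had 93.8, 105, 67.7 and 99.2 CPM against 45.6, 68.4, 116 and 20.02 CPM. The deficient libraries spread more widely than the sufficient ones, from the lowest value, in replicate 8, to the highest, in replicate 7. Its log2 fold was -0.55 ± 0.54 (SE; edgeR adjusted p = 1.000), and it was -1.03 without deficient replicate 7, -0.26 without deficient replicate 8, -1.05 without replicates 5 and 7 and -0.90 without replicates 1, 2 and 7. Nfkb1 had 1078, 622, 691 and 1301 CPM against 514, 1115, 700.5 and 533 CPM, so that sufficient replicates 1 and 4 and deficient replicate 6 were high and the other 5 libraries lay together. The log2 fold of Nfkb1 was -0.37 ± 0.32 (SE; edgeR adjusted p = 1.000). It was -0.16 without sufficient replicate 4, -0.16 without replicates 5 and 7, and -0.67 without deficient replicate 6, where p before adjustment was under 0.05.

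**Figure D4:**
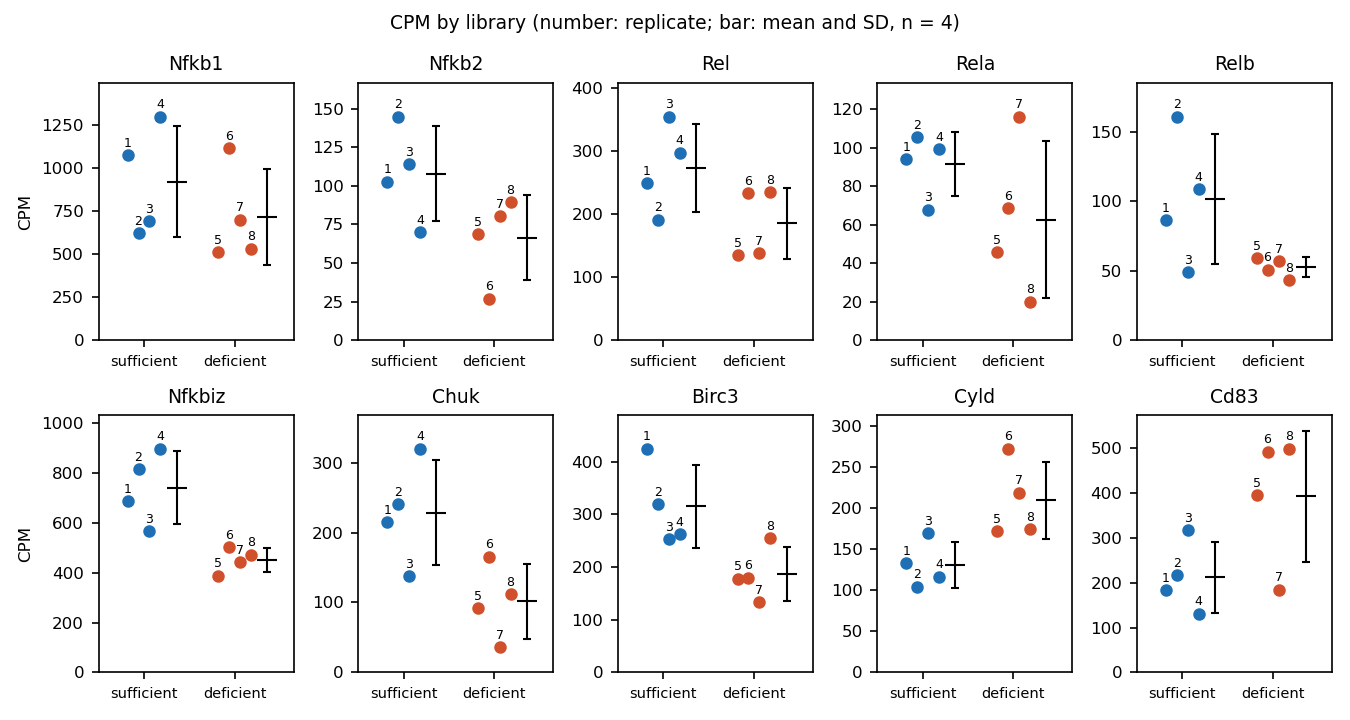
CPM in each library for the 5 subunit genes and for the 5 genes with p under 0.05 before adjustment. Each point is 1 library with its replicate number, bars are the mean and SD over n = 4, and each axis starts at 0. In Nfkbiz and Cyld the groups do not overlap, while in the other 8 genes they do.

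Among the inhibitors, Nfkbiz had the smallest p of the list. It encodes IkB zeta, a nuclear IkB protein that binds p50 and is needed for the induction of a subset of NF-kB target genes rather than for retention in the cytoplasm (Entrez ID 80859, chromosome 16, 55811375 to 55838954). Sufficient replicates 1 to 4 had 687, 816, 566 and 897 CPM and deficient replicates 5 to 8 had 388, 503, 442 and 473 CPM. All 4 deficient libraries were below the lowest sufficient library, replicate 3, and deficient replicate 5 was lowest and sufficient replicate 4 highest. The means were 742 ± 145 against 451 ± 48.8 CPM, and the log2 fold was -0.72 ± 0.20 (SE; edgeR adjusted p = 0.664). Leaving out each library in turn gave log2 folds from -0.81 to -0.61 with p under 0.05 before adjustment each time. The log2 fold was -0.69 without replicates 1, 2 and 7, the libraries with most stromal or epithelial transcripts, and -0.60 without replicates 5 and 7, and in both cases the p before adjustment was no longer under 0.05. DESeq2's adjusted p for Nfkbiz was 0.0632, the smallest of any member over the alternatives.

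The classical inhibitor Nfkbia had 561, 386, 436 and 341 CPM in sufficient and 323, 225, 421 and 291 CPM in deficient libraries. Deficient replicates 5, 6 and 8 were below all sufficient libraries, and replicate 7, with the most neutrophil transcripts, was within their range (log2 fold -0.45 ± 0.26 SE, edgeR adjusted p = 1.000). The Nfkbia fold was -0.74 without replicates 5 and 7 and -0.17 without replicates 1 and 6. Nfkbid, encoding the nuclear inhibitor IkBNS, had 37.9 to 63.5 CPM in sufficient libraries and 0.828 to 44.1 CPM in deficient ones, of which replicate 5 was near 0. Its means were 49.5 ± 10.9 against 26.9 ± 20.1 CPM. Nfkbie, encoding IkB epsilon, had 266 ± 56.9 against 263 ± 109 CPM, and Nfkbib, encoding IkB beta, 61.4 ± 23.3 against 71.8 ± 34.5 CPM. For Bcl3, a nuclear IkB protein that acts with p50 and p52 dimers, levels ran from 0 to 23.3 CPM with both groups spread over the range, and means were 6.12 ± 4.39 against 9.47 ± 10.97 CPM. None of Nfkbid, Nfkbie, Nfkbib and Bcl3 had a p under 0.05 before adjustment.

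Of the IKK kinases, Chuk differed most in its fitted value. Chuk encodes IKK alpha, the kinase that phosphorylates p100 in the non-canonical arm (Entrez ID 12675, chromosome 19, 44073334 to 44107505). It had 215, 240.4, 137 and 319.7 CPM in sufficient replicates 1 to 4 and 91.8, 166, 36.04 and 112 CPM in deficient replicates 5 to 8. The groups overlapped through 1 library on each side, with sufficient replicate 3 below deficient replicate 6, and deficient replicate 7 was lowest. Means were 228 ± 75.2 against 101 ± 53.5 CPM, and the log2 fold was -1.17 ± 0.46 (SE; edgeR adjusted p = 1.000). Without deficient replicates 5 and 7 the log2 fold of Chuk was -0.71, and without replicates 1 and 6 it was -1.53. The p before adjustment was over 0.05 in the first case, without replicates 1, 2 and 7 (log2 fold -0.89), and also when sufficient replicate 2 or 4 or deficient replicate 5 was left out alone. Ikbkb, encoding IKK beta, the canonical kinase, had 53.7, 56.02, 80.5 and 100.5 CPM against 79.5, 82.3, 91.9 and 58.8 CPM, with every deficient library inside the sufficient range. Its means were 72.7 ± 22.2 against 78.1 ± 13.95 CPM (log2 fold 0.10 ± 0.41 SE, edgeR adjusted p = 1.000). Whether the folds of Chuk and Ikbkb differ from each other was not tested. Tbk1, an IKK-related kinase of the antiviral response, had 163 ± 31.9 against 131 ± 84.02 CPM, with deficient replicate 6 highest at 254 CPM. Ikbkg, encoding the scaffold NEMO, had 27.7 ± 37.3 against 27.5 ± 24.9 CPM, so that the SDs were close to or above the means. The span of Ikbkg overlaps those of Fam3a and G6pdx in RefSeq.

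None of the kinases above the IKK complex passed the test, and their groups overlapped. Map3k14, encoding NIK, the initiating kinase of the non-canonical arm, had 89.03, 28.7, 31.6 and 107 CPM in sufficient and 83.7, 46.02, 53.3 and 45.8 CPM in deficient libraries. Sufficient libraries fell at the top (replicates 1 and 4) and at the bottom (replicates 2 and 3), with the deficient ones between them. Map3k8, encoding TPL2, which is held inactive by p105, had 378 ± 121 against 338 ± 149 CPM. Tab2, encoding the ubiquitin-binding partner of TAK1, had 261 ± 45.8 against 213 ± 88.8 CPM. Map3k7, encoding TAK1 itself, had 52.8 ± 20.9 against 57.1 ± 65.1 CPM, and its deficient libraries ran from 3.19 CPM in replicate 8 to 149 CPM in replicate 6. None of these 4 genes had an edgeR p under 0.05 before adjustment.

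Among the adaptors and ubiquitin ligases, Birc3 had the smallest p. Birc3 encodes cIAP2, a ubiquitin ligase that promotes canonical signalling and, with TRAF2 and TRAF3, keeps NIK low (Entrez ID 11796, chromosome 9, 7847468 to 7873205). It had 424, 319.8, 253 and 263 CPM in sufficient and 178, 179.5, 133 and 255 CPM in deficient libraries. Deficient replicates 5, 6 and 7 were below every sufficient library, and replicate 8 was level with sufficient replicates 3 and 4. The log2 fold was -0.76 ± 0.28 (SE; edgeR adjusted p = 1.000). It was -0.34 without replicates 1, 2 and 7 together, with p before adjustment then over 0.05, as it also was without replicates 5 and 7 (-0.53), without replicates 1 and 6 (-0.55), and without sufficient replicate 1, deficient replicate 5 or deficient replicate 7 alone. Sufficient replicate 1, the highest library, was also the one with most stromal transcripts, whose part in the result was not tested. The related gene Birc2, encoding cIAP1, had 536 ± 92.2 against 449.7 ± 147 CPM (log2 fold -0.25, edgeR adjusted p = 1.000).

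The TRAF adaptors gave no common direction. Traf1, an NF-kB-induced adaptor, had 139.8 ± 65.1 against 194 ± 74.6 CPM (log2 fold 0.47, edgeR adjusted p = 1.000), and its highest sufficient library was replicate 2, at 237 CPM. Traf3, the adaptor that marks NIK for degradation, had 33.8 ± 19.3 against 40.7 ± 12.7 CPM, and Traf6, which serves interleukin 1 and Toll-like receptors, 74.2 ± 52.1 against 79.3 ± 71.3 CPM. Traf2, the adaptor that recruits cIAP proteins, had 5.87 to 34.8 CPM in sufficient libraries. In deficient ones it was at 54.0 CPM in replicate 6 and at most 3.66 CPM in the other 3. The receptor-associated kinases Ripk1 and Ripk2 had 52.3 ± 25.4 against 72.99 ± 69.00 CPM and 60.4 ± 41.2 against 115 ± 70.9 CPM, and Ripk2, which relays NOD receptor signals, was highest in deficient replicate 5 at 219 CPM. The adaptor gene Bcl10 had 45.7 ± 24.97 against 66.1 ± 19.4 CPM, and the paracaspase gene Malt1 had 29.6 ± 22.9 against 7.64 ± 7.22 CPM. Malt1 had the most negative log2 fold of the list, -1.96, with a standard error of 1.24 (edgeR adjusted p = 1.000), and its sufficient libraries ran from 5.05 CPM in replicate 1 to 53.6 CPM in replicate 3. Deficient replicates 5 and 6 were below that range and replicates 7 and 8 within it.

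The feedback inhibitors did not share a direction. Cyld encodes a deubiquitinase that removes the linear and K63-linked ubiquitin chains on which IKK activation depends (Entrez ID 74256, chromosome 8, 88696878 to 88751946). It had 133, 105, 169.5 and 117 CPM in sufficient and 172, 273, 219 and 174 CPM in deficient libraries. All 4 deficient libraries were above all 4 sufficient ones, although deficient replicates 5 and 8 lay just above sufficient replicate 3. Means were 131 ± 28.2 against 209.6 ± 47.2 CPM, and the log2 fold was 0.68 ± 0.29 (SE; edgeR adjusted p = 1.000). Deficient replicate 6 was highest, and without it the log2 fold was 0.52. The p of Cyld before adjustment was over 0.05 without deficient replicate 6 or 7 or sufficient replicate 1, 2 or 4, and under it in the other 3 fits that left out a library. The Cyld span overlaps those of Gm17910 and Gm17995 in RefSeq, and the strand setting of the counting is unknown here.

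Tnfaip3, the most abundant of the list, had 2545, 2608, 2475 and 3288 CPM against 2094, 3578, 2391 and 1689.7 CPM. Deficient replicates 5, 7 and 8 were below all sufficient libraries and replicate 6 was above them all. The means were 2729 ± 376 against 2438 ± 813 CPM (log2 fold -0.16 ± 0.24 SE, edgeR adjusted p = 1.000). Leaving out 1 library moved the Tnfaip3 fold from -0.41 without deficient replicate 6 to -0.02 without deficient replicate 8. Its binding partner genes Tnip1 and Tnip2 had 150.3 ± 71.8 against 125 ± 51.6 CPM and 14.9 ± 3.17 against 15.7 ± 18.4 CPM.

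Of the response genes, Cd83, a membrane protein induced on activated lymphoid and dendritic cells (Entrez ID 12522, chromosome 13, 43785112 to 43803133), had 183, 216, 317 and 131 CPM in sufficient and 395, 493, 184 and 499 CPM in deficient libraries. Deficient replicates 5, 6 and 8 were above every sufficient library, and replicate 7 was level with sufficient replicate 1. The log2 fold was 0.89 ± 0.37 (SE; edgeR adjusted p = 1.000). The 9 dendritic cell markers summed to 104 to 176 CPM in sufficient and 145 to 294 CPM in deficient libraries, of which 4 genes passed the filter. Of this list Cd209a and Ccl22 were at 0 counts in all 8 libraries, and the highest values of Flt3 and Itgax were 0.219 and 0.188 CPM. Others of the list were present. Irf8 had 5.75, 0.331, 0.937 and 0.0786 CPM in sufficient and 13.6, 16.6, 7.63 and 25.7 CPM in deficient libraries, with no overlap. The means of Ccl17, Xcr1 and Batf3 were 34.1, 50.2 and 64.5 CPM in sufficient and 57.8, 58.9 and 74.6 CPM in deficient libraries. The part of cells that express these genes in the Cd83 values was not tested. Without deficient replicates 5 and 7 the log2 fold of Cd83 was 1.23, without replicates 1, 2 and 7 it was 1.04, and without replicates 1 and 6 it was 0.70, and only in the first of these was p before adjustment under 0.05. The p of Cd83 before adjustment was over 0.05 when any library but sufficient replicate 3 or deficient replicate 7 was left out. Icam1, the adhesion ligand of leukocyte integrins and a textbook NF-kB target, had 34.1 ± 22.4 against 18.8 ± 18.3 CPM, with ranges of 14.5 to 59.6 and 3.69 to 41.9 CPM (edgeR adjusted p = 1.000).

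The arms of the pathway were then set side by side as counts. Among the 20 tested canonical genes 11 fitted values were below and 9 above the control, at a median log2 fold of -0.01. Of the 5 non-canonical genes (Nfkb2, Relb, Chuk, Map3k14 and Traf3) 4 were lower, with a median of -0.70, beside 0.02 over all tested genes. Chuk, with the lowest fold of these (-1.17), was counted in this arm only, although it is also a catalytic gene of the IKK complex. Traf3, which marks NIK for degradation, was counted together with genes that activate the arm. The contrast between arms depends on this assignment. Summed over the 5 non-canonical genes, sufficient libraries had 524, 630.5, 341 and 645 CPM and deficient ones 342, 327, 284 and 319 CPM. Sufficient replicate 3 was level with the highest deficient library, and the other 3 sufficient libraries were above every deficient one. Such sums weigh abundant genes most. Chuk had the largest difference in means (228 against 101 CPM), followed by Relb (101 against 52.4) and Nfkb2 (108 against 66.4). Map3k14 (64.1 against 57.2) and Traf3 (33.8 against 40.7) differed little. The canonical genes summed to 5781 to 6722 CPM in sufficient and 4112 to 7692 CPM in deficient libraries, whose range held all the sufficient values. Of the canonical sum Tnfaip3 alone gave means of 2729 and 2438 CPM, with 3578 CPM in deficient replicate 6. Of the genes that serve both arms (Traf1, Traf2, Birc2 and Birc3 among those tested) 3 of 4 were lower, and of the atypical nuclear inhibitors (Nfkbid, Nfkbiz and Bcl3) 2 of 3 were. A difference between the arms was not tested, since the list was drawn up with earlier results known.

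The deficient libraries differed among themselves in these genes. Deficient replicate 6 held the highest value of 12 of the 35 tested genes (34.3%), where it held that of 19.0% of all tested genes. Deficient replicates 5, 7 and 8 held the lowest value of 21 of the 35 (60.0%), against 25.9% of all tested genes. For all deficient libraries it was 26 of the 35 (74.3%), against 42.4%. A gene at 0 in several libraries was credited to the first of them in replicate order, so the shares over all tested genes favour earlier replicates. Among genes that averaged 100 CPM or more the shares for replicates 5, 7 and 8 were 11 of 16 members (68.8%) and 35.01% of all. For all deficient libraries they were 12 of 16 members (75.0%) and 56.7% of all genes of that level. The 38 genes together made up 0.680%, 1.03%, 0.769% and 0.650% of all counts in deficient replicates 5 to 8, and 0.905%, 0.827%, 0.766% and 0.907% in sufficient replicates 1 to 4. Deficient replicate 6 was thus above every sufficient library, and replicates 5 and 8 below all of them. In deficient replicate 6 Tnfaip3 gave 94235 of the 277429 counts of the list.

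A second list of 79 other pathway genes, drawn up by role, was followed in the same fit. Of these, 61 were tested, 29 with higher and 32 with lower fitted values, and the median log2 fold was -0.01. With edgeR 0 of the 61 passed after adjustment, and 5 had p under 0.05 before it (8.20%, beside 4.10% of all tested genes). The groups did not overlap in 4.92% of the 61, 2 genes lower and 1 higher, beside 4.36% of all tested genes. Among 12 tested receptor genes 7 were higher. Tnfrsf18, encoding the costimulatory receptor GITR, had 361, 299, 351 and 246 CPM in sufficient and 229, 103, 80.97 and 144 CPM in deficient libraries, which did not overlap (log2 fold -1.18 ± 0.35 SE, edgeR adjusted p = 0.710). Tnfrsf1b, encoding the second TNF receptor, had 121 ± 33.97 against 165 ± 42.7 CPM. Among 12 tested receptor adaptors and kinases 5 were lower, and Tank, a TRAF-binding scaffold for IKK-related kinases, had 735 ± 243 against 392 ± 199.5 CPM (edgeR adjusted p = 1.000), while Irak2, a kinase of interleukin 1 signalling, had 152 ± 36.1 against 95.5 ± 26.3 CPM (edgeR adjusted p = 1.000).

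All 13 genes of the ubiquitin machinery were tested, and 6 were lower. Zfand6 had 1335 ± 236 against 1043 ± 94.9 CPM, and Rbck1, encoding the linear ubiquitin ligase subunit HOIL-1, 6.38 ± 7.39 against 38.9 ± 31.8 CPM. Of 5 tested nuclear partners 2 were lower, and Pias1 had 206 ± 124 against 96.1 ± 19.5 CPM (edgeR adjusted p = 1.000) and Commd1 108 ± 38.9 against 159 ± 40.8 CPM. Among 19 tested target genes 14 were lower, with a median log2 fold of -0.21. Ltb, encoding lymphotoxin beta, had 63.7, 199, 174 and 97.2 CPM against 38.7, 44.8, 50.7 and 61.8 CPM, without overlap (log2 fold -1.44 ± 0.44 SE, edgeR adjusted p = 0.772). Il6, a cytokine gene and textbook NF-kB target, had 1 count over the 4 sufficient libraries and 40.2, 101, 55.9 and 18.8 CPM in deficient replicates 5 to 8 (edgeR adjusted p = 0.174). DESeq2, run without the expression filter, gave Il6, Ltbr and Tlr4 an adjusted p under 0.05. Tlr4 had 337 and 397 counts in sufficient replicates 1 and 4 and none elsewhere, and Ltbr had 18, 108 and 96 counts in deficient replicates 6 to 8 and 1 count over the other 5 libraries.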

How the data were processed

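Per the labels' protocols, libraries were made from sorted cells with the Clontech SMARTer Ultra Low Input kit, which amplifies full-length cDNA. CASAVA 1.8.2, STAR 2.3.0 and the build mm10 are named in the submitters' processing notes. How reads were assigned to genes (tool, gene models, strand, multiply mapped reads) is not given in the sources used. The authors deposited whole-number read counts per Entrez gene, not normalized, for 27179 genes. Symbols came from RefSeq's GRCm38.p6 gene table for 25275 rows, and the 1904 others held 0.303% of counts.

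Groups follow the sample titles. Counts were fitted with edgeR 4.0.16 (R 4.3.3) by the quasi-likelihood F test, after filterByExpr by group and TMM scaling, with Benjamini-Hochberg adjustment over all 8878 tested genes, at 0.05. Standard errors were derived from the F statistic. CPM use the TMM-scaled total of tested genes. The fit was tested on simulated data. Levels per kb used the principal transcript. Alternatives were other scaling factors, DESeq2 1.42.0, limma 3.58.1 voom with quality weights, robust dispersions, other filters and left-out libraries. Members and lists were chosen with earlier results of these data known. All 38 members are named. Fuller values are given for the 5 subunits, members with p under 0.05 before adjustment and the 3 highest per kb, and other pathway genes are named by the 2 smallest p per role. The driver of the Cre is not reported here.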

Additional observations from a re-analysis of the deposited data

Results flagged for a closer look

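Within 6 of the 78 groups of 4 libraries examined (38 members and Zbtb46, each in both groups), 1 library lay far from the other 3 by Dixon's criterion, where chance gives about 1 in 20, or 3.9 groups. Traf1 was at 237 CPM in sufficient replicate 2 against 97.5 to 116 CPM in the others. Tnfaip3 was at 3288 CPM in sufficient replicate 4 against 2475 to 2608 CPM. Traf2 was at 54.0 CPM in deficient replicate 6 against 0.438 to 3.66 CPM. The other 3 cases were genes near 0 counts elsewhere. Ikbke was at 3.71 CPM in sufficient replicate 3 against 0 to 0.274 CPM, Traf5 at 17.7 CPM in sufficient replicate 4 against 0, and Tab1 at 0.188 CPM in deficient replicate 8 against 0.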

How the results depend on the processing

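The absence of a call among the 35 tested members held under all 20 alternatives, and the median log2 fold of the list stayed below 0 under each. It was not below the median over all genes fitted with DESeq2 (-0.159 against -0.240) or with no filter (-0.142 against -0.192). The same held without replicates 5 and 7 (-0.050 against -0.057). In the other alternatives the list had the lower median. Over all genes 0 were called, against 373 by DESeq2, 2 with no filter, 4 among genes that averaged 100 CPM or more, and 0 to 2 when a library was left out (2 without deficient replicate 6). The log2 fold of Zbtb46 was called by DESeq2 (-4.30) and not in the other alternatives, of which DESeq2, limma-voom, robust dispersions, the 2 filters and the fits without replicates 5 and 7 or 1, 2 and 7 were added for Zbtb46 after seeing the data. Of the other pathway genes 0 were called, against 3 by DESeq2 and 1 with no filter. In the main fit 22 of the 35 members had lower fitted values. When only genes averaging 100 CPM or more were fitted, 12 of 16 members were lower, against 13 of the same 16 in the main fit. Of the 35 members 17 kept the sign of their fold in every alternative and 18 did not, and the cause was not tested.

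The log2 folds that changed sign were as follows, by alternative. Without replicates 5 and 7 they were Nfkbib -0.18, Bcl3 -3.16, Ikbkb -0.042, Ikbkg 0.56, Tbk1 0.058, Map3k8 0.12, Tab2 0.10, Traf2 0.54, Traf3 -0.033 and Birc2 0.082. Without replicates 1 and 6 they were Ikbkb -0.043, Map3k14 0.13, Map3k7 -0.84, Traf6 -0.15, Ripk1 -0.46 and Tnip2 -1.16. Without replicates 1, 2 and 7 they were Ikbkb -0.30, Map3k8 0.13 and Icam1 0.63. With limma-voom they were Map3k14 0.13, Map3k7 -1.48, Traf6 -0.20, Ripk1 -0.36 and Tnip2 -1.74. Upper-quartile factors gave Nfkbie 0.0070, Ikbkg 0.083 and Tnip2 -0.0070, no scaling factors Nfkbie 0.085 and Ikbkg 0.096, and no filter Nfkbie 0.015 and Ikbkg 0.021. Requiring 5 CPM or more in 4 libraries gave Ikbkg 0.016, and fitting only genes averaging 100 CPM or more gave Nfkbie 0.064. Leaving out 1 library at a time gave ranges that crossed 0 for Nfkbib -0.028 to 0.51, Nfkbie -0.22 to 0.15, Bcl3 -0.35 to 1.04, Ikbkb -0.020 to 0.30, Ikbkg -0.74 to 1.56, Map3k14 -0.41 to 0.20, Map3k7 -1.02 to 0.51, Traf2 -3.14 to 0.031, Traf3 -0.026 to 0.62, Traf6 -0.74 to 0.68, Ripk1 -0.37 to 0.82, Tnip1 -0.52 to 0.094 and Tnip2 -1.01 to 0.47.

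No paired analysis was possible because the groups share no replicate number and each library is a mouse of its own.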
